A study of Macaca mulatta with 6 samples.

Results

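POU5F1, NANOG and 8 partner genes of the pluripotency network were followed across 6 RNA sequencing libraries of rhesus monkey induced pluripotent stem cell (iPSC) lines. The 10 members are the transcription factors POU5F1, NANOG, PRDM14, ZSCAN10, FOXD3 and SALL4, together with DPPA2, DPPA4, L1TD1 and UTF1, among 30246 gene rows in all. They were taken by gene symbol, and 8 of the rows used carry that symbol in the deposited files. The rows of NANOG and DPPA4 carry none and were named from a table of Ensembl gene names. The series title names fibroblasts as the source of the naive lines, and feeder cells were removed before RNA was extracted. Of the 6 lines, 2 male and 2 female lines were naive and 2 male lines were primed, with no female primed line analysed here. Naive lines of both sexes were kept in the condition labelled 6SM, a KnockOut DMEM medium with 15% serum replacement, N2, L-glutamine, non-essential amino acids and 2-mercaptoethanol. It held 4 ng/ml bFGF, 10 ng/ml human LIF, the GSK3 inhibitor CHIR99021 (3 µM), the MEK inhibitor PD0325901 (0.5 µM), the p38 inhibitor SB203580 (10 µM) and the JNK inhibitor SP600125 (10 µM). Primed lines were kept in the condition labelled hESM, a D/F12 medium with 20% serum replacement and bFGF at a dose that is not stated. The labels give embryo as the developmental stage of each sample and do not say which donor a line came from. With n = 2 libraries per group, a p-value reflects the variation among lines, which need not be that among animals.

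POU5F1 (OCT4) is a POU-domain factor that binds DNA beside SOX2, and with the homeodomain factor NANOG it holds pluripotent cells in their undifferentiated state. The 3 factors bind their own and each other's regulatory regions and many shared target genes. Several of the other members are such targets that act back on the network or on chromatin. Naive and primed are names for the pluripotent states before and after implantation, and POU5F1 is active in both.

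Levels are given as FPKM, a fragment number divided by transcript length in kilobases and by the number of fragments mapped in the library, so genes can be compared per length. The fragments behind a value were estimated from the deposited error bounds. They summed to 1747888 and 1472688 in the male naive libraries and to between 7591127 and 9984083 in the other 4, so lower depth and the male naive group cannot be told apart. Over 13685 tested rows, limma on log2(FPKM + 1) called 920 higher and 628 lower in naive than in primed lines at an adjusted p under 0.05. It called 543 higher and 195 lower in male naive than in primed, and 104 higher and 349 lower in female than in male naive. Upper-quartile scaling gave 693 and 878, 391 and 357, and 106 and 219 in that order, median-of-ratios scaling 816 and 689, 418 and 255, and 114 and 219, and quantile normalization 741 and 739, 399 and 294, and 118 and 223. Upper-quartile scaling moved the median difference of all rows from 0.09 to -0.057 between male naive and primed lines, and median-of-ratios scaling moved it from -0.104 to 0.029 between female and male naive lines.

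POU5F1 was the highest member in each library and was several-fold higher in naive lines. Its row (ENSMMUG00000015688, chromosome 4, 30733290 to 30739471 in the coordinates of the files) stood at 536 and 571 FPKM in the male naive pair, 738 and 1160 in the female naive pair, and 135 and 109 in the primed pair. The groups did not overlap, and the lowest naive library was 3.99-fold above the higher primed one. On the log2(FPKM + 1) scale POU5F1 rose by 2.55 (SE 0.2, 95% interval 2.07 to 3.03, limma adjusted p = 0.00507). At least 1621 estimated fragments in male naive and 1627 in primed libraries lay behind these values. In bulk RNA, fewer cells of a type and less RNA per cell cannot be told apart.

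NANOG had the widest separation among the members. Its row (ENSMMUG00000032158, chromosome 11, 8088932 to 8095022) stood at 28.7 and 30.7 FPKM in the male naive pair, 73.8 and 95.9 in the female naive pair, and 0.933 and 2.09 in the primed pair. All 4 naive libraries were above both primed ones, the lowest of them by 13.7-fold. The fitted rise was 4.39 (SE 0.23, 95% interval 3.84 to 4.94, adjusted p = 0.00238), and the primed values rested on 16 and 28 estimated fragments. A second row carrying the symbol NANOG in the files (ENSMMUG00000013754) spans 309 bp of an unplaced sequence. It was listed at 0 and 1.58 FPKM in the male naive pair, 5.02 and 29.5 in the female naive pair, and 0.917 and 0 in the primed pair, and was not called (log2 difference 1.75, adjusted p = 0.166). How reads were shared between the 2 rows is not given in the sources used here.

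**Figure D1:**
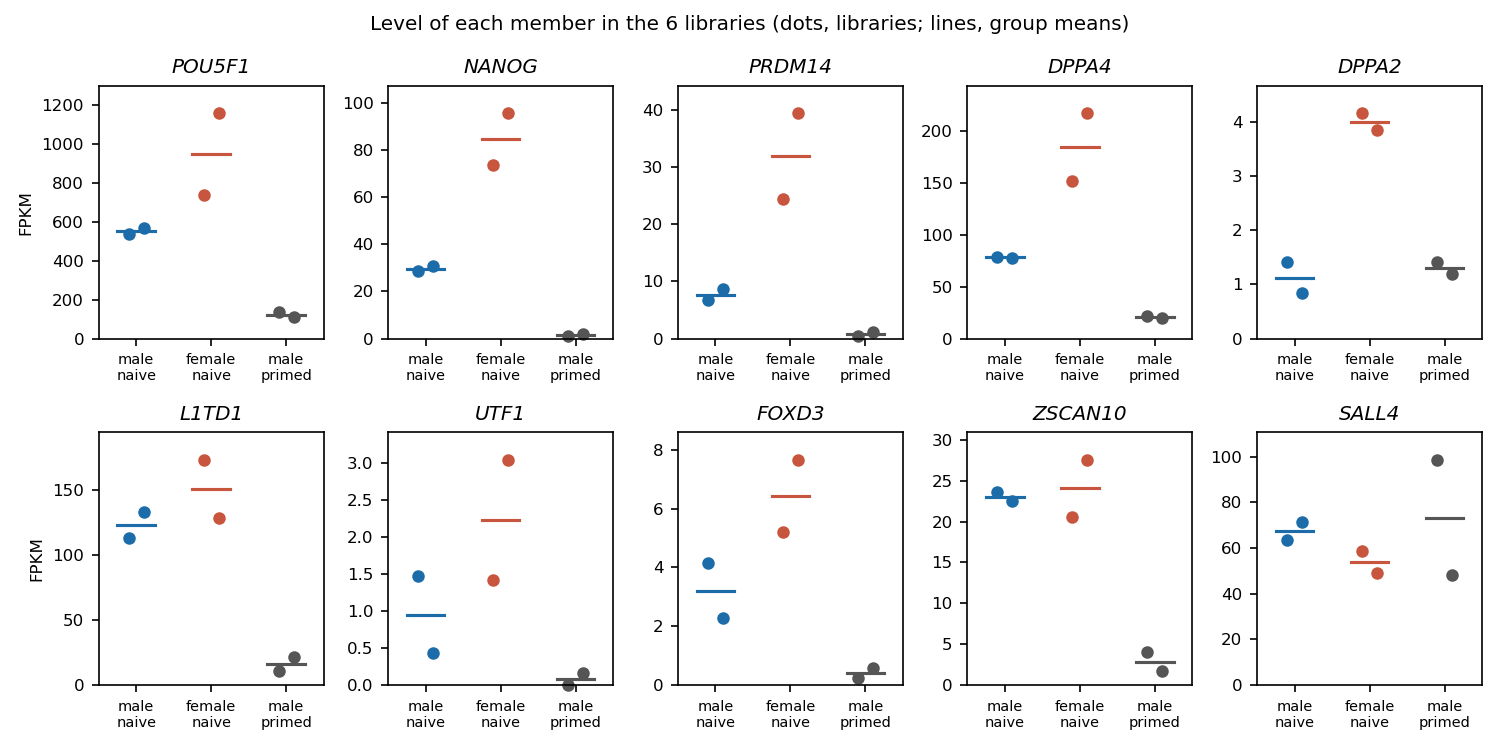
FPKM of each of the 10 members (vertical axis, linear from 0, its own scale per panel) in the 6 libraries, with dots for libraries and lines for the mean of each group (n = 2 each). POU5F1, NANOG, PRDM14, DPPA4, L1TD1, UTF1, FOXD3 and ZSCAN10 have all naive dots above the primed dots, while DPPA2 and SALL4 overlap.

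Of the 4 DNA-binding partners, PRDM14, ZSCAN10 and FOXD3 rose in naive lines and SALL4 was not called. PRDM14 (ENSMMUG00000014191, chromosome 8, 72645852 to 72667099), a PR-domain zinc finger protein that represses differentiation genes and also acts in germ cell specification, stood at 6.73 and 8.6 FPKM in the male naive pair, 24.3 and 39.4 in the female naive pair, and 0.52 and 1.13 in the primed pair. Every naive value was at least 5.94-fold above the higher primed value. PRDM14 rose by 3.2 (SE 0.27, 95% interval 2.55 to 3.86, adjusted p = 0.00617), where 39 and 42 estimated fragments lay behind the male naive values and 17 and 29 behind the primed ones. With sex ignored in the fit its adjusted p was 0.0632.

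ZSCAN10 (ENSMMUG00000009484, chromosome 20, 3222250 to 3233184) is a SCAN-domain zinc finger factor of embryonic stem cells. It stood at 23.6 and 22.5 FPKM in the male naive pair, 20.6 and 27.6 in the female naive pair, and 4.01 and 1.72 in the primed pair. Male and female naive values overlapped, and all of them were at least 5.13-fold above primed. The fitted rise was 2.73 (SE 0.28, adjusted p = 0.00869).

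FOXD3 (ENSMMUG00000022350, chromosome 1, 66123023 to 66124459), a forkhead factor of epiblast and neural crest cells, was low throughout, at 4.14 and 2.29 FPKM in the male naive pair, 5.21 and 7.67 in the female naive pair, and 0.244 and 0.562 in the primed pair. It rose by 1.98 (SE 0.29, adjusted p = 0.0159), with 5 and 9 estimated fragments behind the primed values and 15 and 7 behind the male naive ones. The adjusted p was 0.0516 without male naive 1, 0.0606 without female naive 2 and 0.0779 without primed 1. It was 0.0611 with sex ignored and 0.121 with all libraries thinned to the lowest depth.

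SALL4 (ENSMMUG00000003870, chromosome 10, 12662284 to 12680203), a spalt-like zinc finger protein that recruits the NuRD corepressor, was at 63.5 and 71.3 FPKM in the male naive pair, 58.8 and 49 in the female naive pair, and 98.8 and 48 in the primed pair. The primed libraries lay on either side of all naive ones. The fitted difference was -0.2 (SE 0.28, 95% interval -0.87 to 0.48, adjusted p = 0.677). With 1 library left out it ran from -0.71 to 0.32, the upper end without primed 1, so its sign depends on the libraries kept. Over the alternatives run, its adjusted p ranged from 0.0608 to 0.835.

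DPPA4 and DPPA2 encode SAP-domain chromatin proteins that work as a pair and mark the promoters of developmental genes. Their rows lie 12246 bp apart on chromosome 2 (DPPA2, ENSMMUG00000022112, 29416185 to 29436817, and DPPA4, ENSMMUG00000016901, 29449064 to 29451855). DPPA4 stood at 78.2 and 77.9 FPKM in the male naive pair, 152 and 217 in the female naive pair, and 21.8 and 19.6 in the primed pair, with no overlap between groups. It rose by 2.47 (SE 0.16, 95% interval 2.08 to 2.87, adjusted p = 0.00348). DPPA2 was much lower, at 1.41 and 0.84 FPKM in the male naive pair, 4.17 and 3.85 in the female naive pair, and 1.41 and 1.2 in the primed pair. Here male naive and primed libraries overlapped and female naive libraries stood above both. DPPA2 was not called between naive and primed lines (log2 difference 0.5, SE 0.23, 95% interval -0.06 to 1.05, adjusted p = 0.199), with 4 and 2 estimated fragments in the male naive libraries.

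L1TD1 and UTF1 complete the set. L1TD1 (ENSMMUG00000006485, chromosome 1, 65002673 to 65008680), an RNA-binding protein derived from a LINE-1 element, stood at 113 and 133 FPKM in the male naive pair, 173 and 128 in the female naive pair, and 10.7 and 21.7 in the primed pair. Naive libraries were at least 5.22-fold above primed, and male and female naive values overlapped. L1TD1 rose by 3.06 (SE 0.28, 95% interval 2.38 to 3.75, adjusted p = 0.00824). UTF1 (ENSMMUG00000006092, chromosome 9, 132880869 to 132882121), a chromatin-bound coactivator of undifferentiated cells, was the lowest member by group mean, although it was above DPPA2 in male naive 1. It was at 1.47 and 0.436 FPKM in the male naive pair and 1.42 and 3.05 in the female naive pair, was listed at 0 in primed 1 and stood at 0.166 in primed 2. The libraries held 4, 1, 18, 47, 0 and 2 estimated fragments in the same order. The naive values lay above the primed ones, and the difference was not called (1.17, SE 0.35, adjusted p = 0.0833).

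In all, 7 of the 10 members rose in naive lines and 0 fell, where limma called 11.3% of all tested rows, 6.72% higher and 4.59% lower. The median difference of the members was 2.51, beside 0.03 for all tested rows. In 8 members all naive values were above both primed values, which 18.9% of tested rows also showed, and in 0 all were below, as in 15.9%. The filter asked for 1 FPKM in 2 libraries, which NANOG, PRDM14, FOXD3 and UTF1 did not reach in the primed pair, so these 4 entered the test through the naive libraries where they are high, and the count and median over all 10 are descriptions. Of the 6 members that reached it in both primed libraries, 4 rose, namely POU5F1, DPPA4, L1TD1 and ZSCAN10. This count is a description too, since the members were chosen with earlier results of these data known. The share called among all rows that reached 1 FPKM in both primed libraries is not given here. By summed FPKM, neural markers other than NES were lower and mesoderm markers higher in naive libraries, although single genes of both lists went otherwise. They are given with the other marker lists, and their part in these counts was not tested. The number called stayed between 5 and 7 over the alternatives run, and was 7 without both shallow male naive libraries and 6 after thinning.

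**Figure D2:**
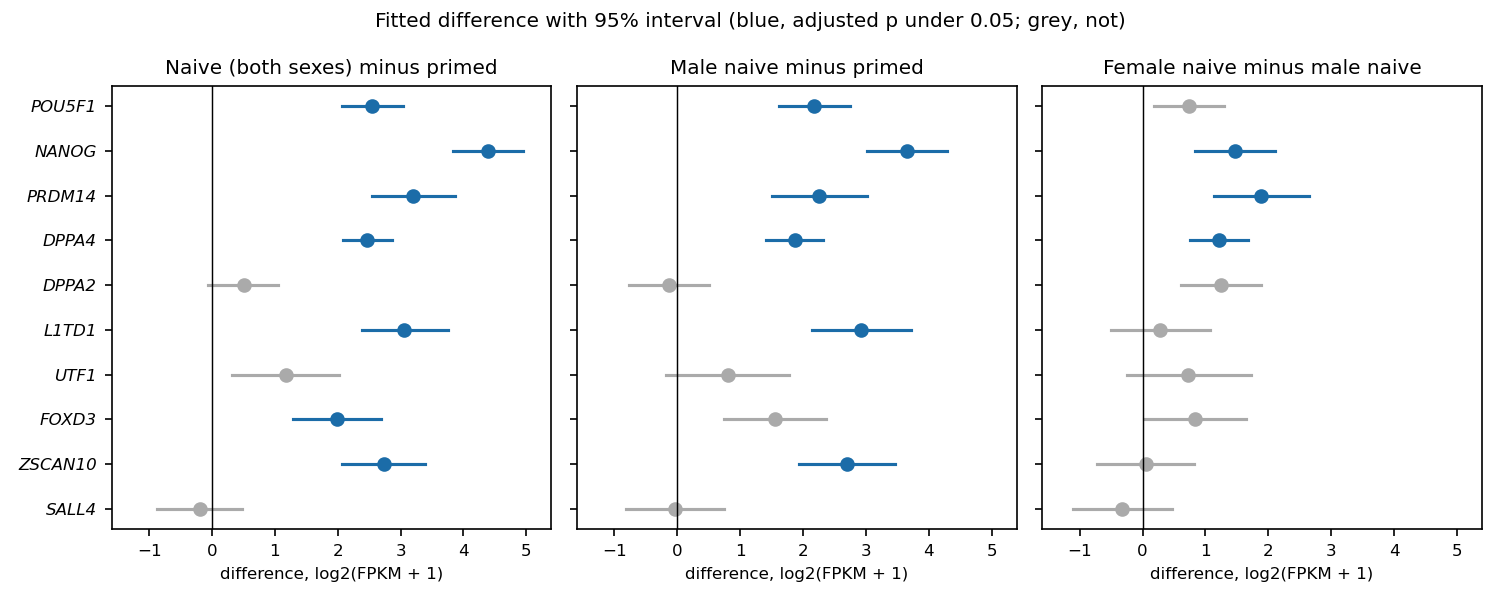
Fitted differences on the log2(FPKM + 1) scale (horizontal axis) with 95% intervals for the 10 members in naive against primed (left), male naive against primed (middle) and female against male naive lines (right), blue where the limma adjusted p was under 0.05. The number of blue members is 7, 6 and 3, NANOG lies farthest right in the first 2 panels, and SALL4 spans 0 in all 3.

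The order of the members by level differed between states. As a ranking of genes it rests on the length of each row's transcript model, which was not checked. In male naive lines it ran POU5F1 (554 ± 24.7 FPKM, SD, n = 2), L1TD1 (123 ± 13.7), DPPA4 (78 ± 0.183), SALL4 (67.4 ± 5.48), NANOG (29.7 ± 1.45), ZSCAN10 (23.1 ± 0.748), PRDM14 (7.67 ± 1.32), FOXD3 (3.22 ± 1.31), DPPA2 and UTF1, and the last 2 overlapped. In female naive lines DPPA4 (185 ± 46) and L1TD1 (151 ± 31.9) overlapped behind POU5F1 (949 ± 298). NANOG (84.9 ± 15.6) stood above SALL4 (53.9 ± 6.88), and PRDM14 (31.8 ± 10.7) overlapped ZSCAN10 (24.1 ± 4.95). In primed lines SALL4 (73.4 ± 35.9) was next to POU5F1 (122 ± 17.9), above DPPA4 (20.7 ± 1.53) and L1TD1 (16.2 ± 7.82), which overlapped. ZSCAN10 (2.87 ± 1.62) overlapped NANOG (1.51 ± 0.815), and NANOG overlapped DPPA2 (1.3 ± 0.148).

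Ranks within a library do not depend on scaling between libraries. POU5F1 ranked 197 and 190 among the 13685 tested rows in the male naive pair, 143 and 87 in the female naive pair, and 643 and 820 in the primed pair, so it stayed among the abundant transcripts in both states. NANOG stood at percentiles 73.6 and 74.9 in the male naive pair, 90.5 and 92.8 in the female naive pair, and 8.6 and 14.2 in the primed pair. PRDM14 stood at percentiles 5.3 and 7.1 in the primed pair, 35.3 and 41.7 in the male naive pair, and 71.6 and 81.7 in the female naive pair. SALL4 stayed between percentiles 85.7 and 93.5 in all 6 libraries.

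**Figure D3:**
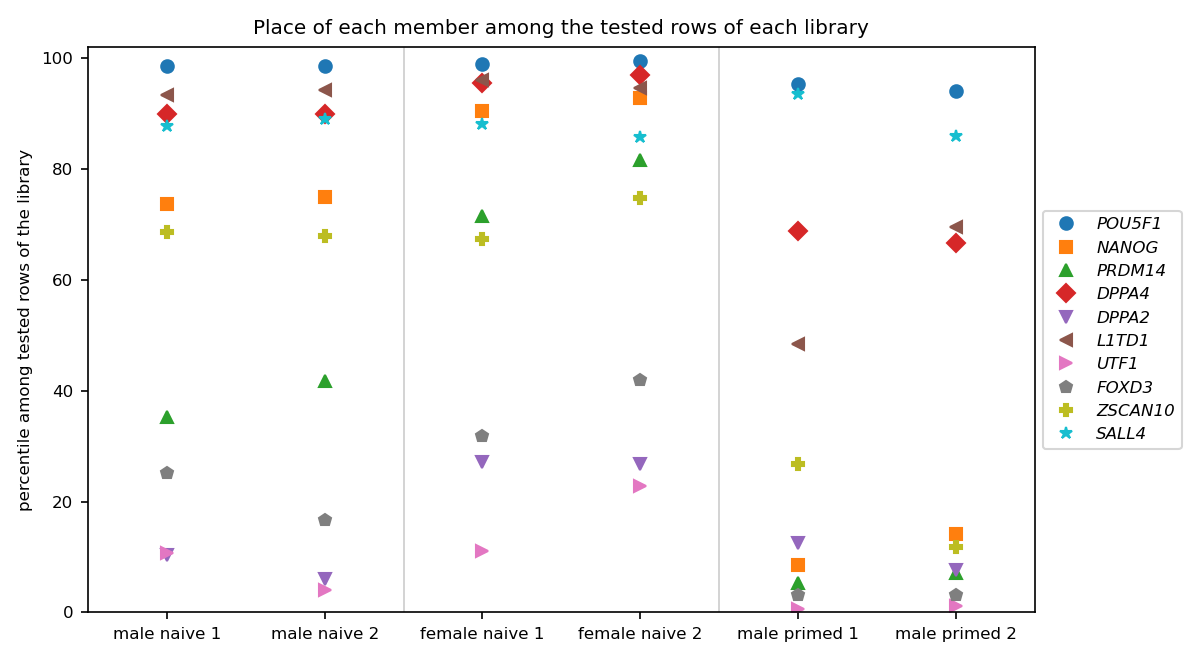
Percentile of each member's FPKM among the 13685 tested rows of the same library (vertical axis), for the 6 libraries along the horizontal axis, with 1 symbol per member. NANOG sits between 73.6 and 92.8 in naive and at 8.6 and 14.2 in primed libraries, while POU5F1 stays at 94 or above and SALL4 at 85.7 or above.

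Ratios between genes of 1 library do not depend on that scaling either. NANOG was at 5.35% and 5.38% of POU5F1 FPKM in the male naive pair, 10% and 8.27% in the female naive pair, and 0.693% and 1.91% in the primed pair, so the ratio was lowest in primed and highest in female naive lines. DPPA4 kept close to POU5F1, at 14.6% and 13.6%, 20.6% and 18.7%, and 16.2% and 18% of it, and primed libraries lay within the naive range. SALL4 was at 11.8% and 12.5% of POU5F1 in the male naive pair, 7.96% and 4.23% in the female naive pair, and 73.4% and 44% in the primed pair. Against SOX2, the DNA-binding partner of POU5F1, POU5F1 stood at 469% and 470%, 865% and 1150%, and 95.6% and 88% in the same order of groups. These ratios are descriptions and were not tested.

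**Figure D4:**
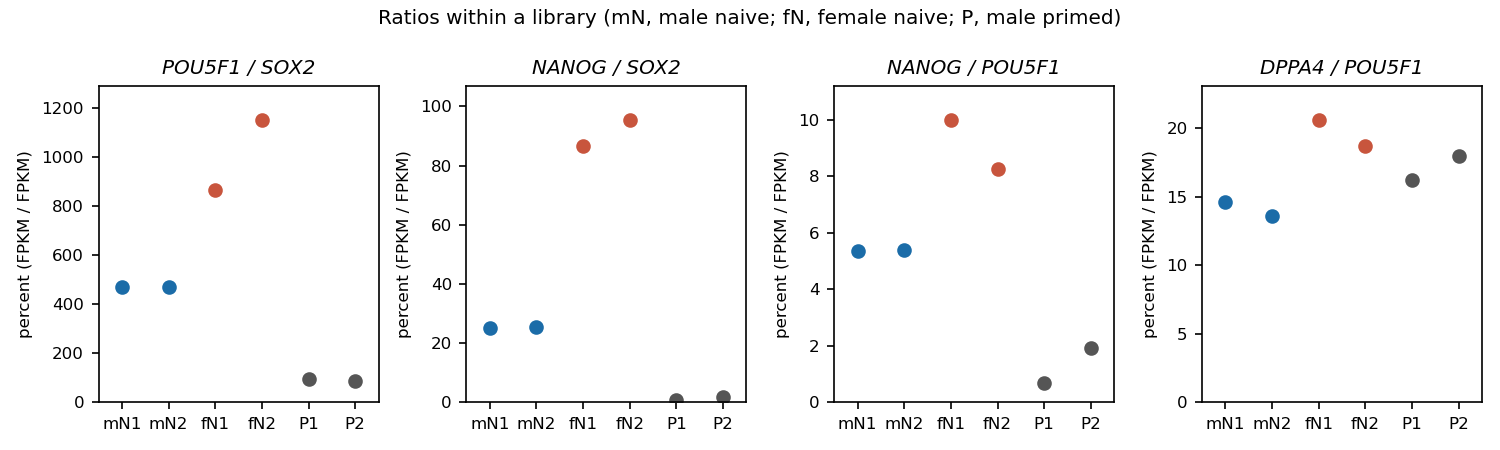
FPKM of 1 gene as a percent of the FPKM of another in the same library (vertical axes, linear from 0) for POU5F1 over SOX2, NANOG over SOX2, NANOG over POU5F1 and DPPA4 over POU5F1 in the 6 libraries. The first 3 ratios are lowest in both primed libraries and highest in both female naive ones, and DPPA4 over POU5F1 lies between 13.6% and 20.6% throughout.

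Male naive against male primed lines leaves sex out of the comparison and shares its libraries with the pooled comparison above. Of the 10 members 6 rose and 0 fell, beside 5.39% of tested rows called, 3.97% higher and 1.42% lower, and the median was 2.02, beside 0.09 for all rows. In 8 members both male naive values were above both primed ones and in 0 below, beside 34.8% and 21.6% of tested rows. As above, NANOG, PRDM14, FOXD3 and UTF1 entered the test through the naive libraries, so these counts and the median are descriptions. Of the 6 that rose, POU5F1, DPPA4, L1TD1 and ZSCAN10 reached 1 FPKM in both primed libraries. NANOG rose by 3.65 (SE 0.26, adjusted p = 0.00303), a 19.7-fold difference of mean FPKM. L1TD1 rose by 2.93 (SE 0.33, adjusted p = 0.00947; 7.6-fold) and ZSCAN10 by 2.7 (SE 0.32, adjusted p = 0.0112; 8.04-fold). PRDM14 rose by 2.26 (SE 0.31, adjusted p = 0.0178; 9.28-fold), POU5F1 by 2.18 (SE 0.23, adjusted p = 0.00846; 4.54-fold) and DPPA4 by 1.87 (SE 0.19, adjusted p = 0.00779; 3.77-fold). FOXD3 missed the threshold at 1.56 (SE 0.33, adjusted p = 0.0531), while UTF1 (0.8, adjusted p = 0.271), DPPA2 (-0.13, adjusted p = 0.802) and SALL4 (-0.03, adjusted p = 0.958) were not called. Without male naive 1 or without male naive 2 NANOG alone was called, with the adjusted p of the other 5 between 0.0662 and 0.12, and without primed 1 PRDM14 was at 0.0705.

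Female and male naive lines shared a medium, and 3 of the 10 members were called higher in the female lines, with 0 lower, beside 3.31% of tested rows called, 0.76% higher and 2.55% lower. PRDM14 was 4.15-fold higher by mean FPKM (log2 difference 1.89, SE 0.31, adjusted p = 0.0359), NANOG 2.86-fold (1.47, SE 0.26, adjusted p = 0.0419) and DPPA4 2.37-fold (1.21, SE 0.19, adjusted p = 0.0326). DPPA2 was 3.56-fold higher without reaching the threshold (1.25, SE 0.26, adjusted p = 0.0644). POU5F1 (0.74, adjusted p = 0.142), FOXD3 (0.83, adjusted p = 0.219) and UTF1 (0.73, adjusted p = 0.357) were not called. L1TD1 (0.28, 95% interval -0.51 to 1.07), ZSCAN10 (0.05, -0.72 to 0.82) and SALL4 (-0.32, -1.11 to 0.46) were not called either. In 6 members both female values were above both male ones, as in 19.4% of tested rows, and in 1, SALL4, both were below, as in 37.6%. The median difference was 0.79, beside -0.10 for all rows. These counts and the median are descriptions, since the members were chosen with earlier results of these data known. Rows under 300 bp held 22.3% and 24.4% of FPKM in the male naive pair, and 16% and 11.7% in the female naive pair. The male naive libraries were also the shallow ones and donors are not labelled. Sex, depth, this share and donor cannot be told apart here. None of the 3 calls held when any 1 of the 4 naive libraries was left out, when no filter was applied or after thinning, with directions kept and adjusted p from 0.0507 to 0.251. With the replicate number as a block, DPPA4 was at adjusted p = 0.0706. Over all alternatives run, the call was lost in 8 of 18 for DPPA4, 8 of 19 for NANOG and 7 of 18 for PRDM14.

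Other genes of the network, listed apart from the members, also differed between the states. Of 28 listed genes 22 were tested between naive and primed lines, and 11 rose and 0 fell, beside 6.72% and 4.59% of all tested rows, with a median difference of 1.29 beside 0.03. Of the 22, 7 reached 1 FPKM in fewer than 2 primed libraries and so were tested through the naive ones, and 4 of these 7 rose. Of the 15 that reached it in both primed libraries, 7 rose. The list was chosen with earlier results of these data known, so its counts and medians are descriptions. Among the 11 called, the 4 with the smallest p were TERF1, a telomere-binding protein (1.84, SE 0.1, adjusted p = 0.00254), TDGF1, the Nodal co-receptor (4.8, SE 0.26, adjusted p = 0.00254), the DNA methyltransferase DNMT3B (1.94, SE 0.14, adjusted p = 0.00396) and PHC1, a Polycomb protein (1.49, SE 0.17, adjusted p = 0.0102). TDGF1 stood at 13.6 and 11.9 FPKM in the male naive pair and 93.4 and 111 in the female naive pair, was listed at 0 in primed 1 and stood at 0.818 in primed 2, so its fitted value is no measure of fold. SOX2 was not called, at 114 and 122 FPKM in the male naive pair, 85.3 and 100 in the female naive pair, and 141 and 124 in the primed pair (-0.34, SE 0.12, adjusted p = 0.119). The row named LIN28A, after an RNA-binding protein of the network, spans 760 bp of chromosome 10 and was listed at 0 in all 6 libraries. Whether that row covers the LIN28A gene was not tested, so its 0 is not read as absence of LIN28A RNA. The row of the paralog LIN28B was between 46.4 and 79 FPKM. In male naive against primed lines 7 of the 22 rose and 0 fell, beside 3.97% and 1.42% of all rows, with a median of 0.81 beside 0.09. In female against male naive lines 3 rose and 0 fell, beside 0.76% and 2.55%, with a median of 0.36 beside -0.10.

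**Figure D5:**
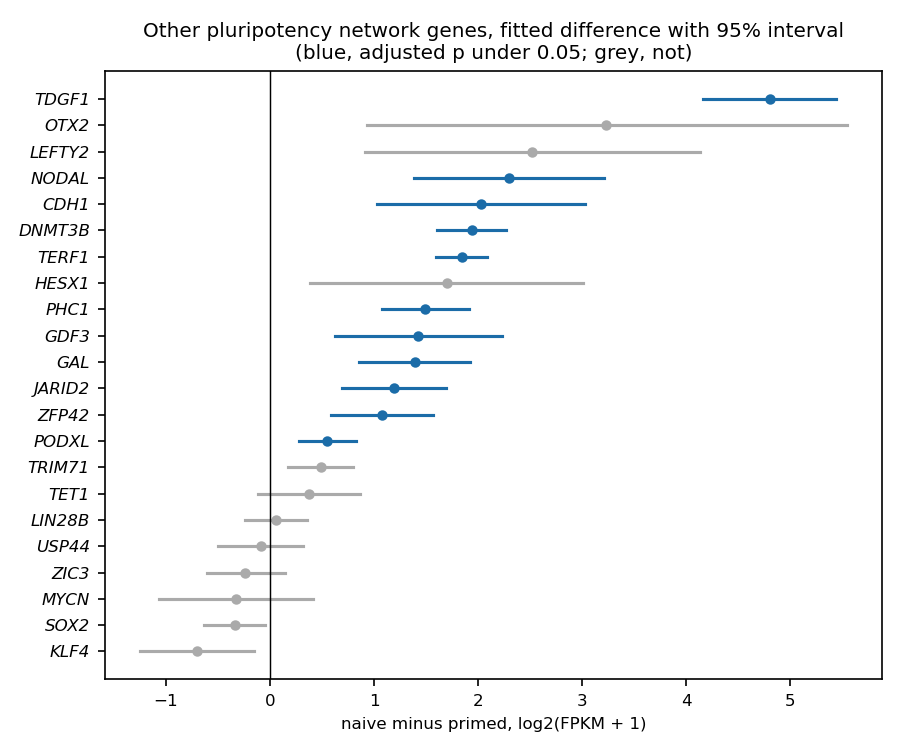
Fitted difference, naive minus primed, on the log2(FPKM + 1) scale (horizontal axis) with 95% intervals for the 22 tested network genes that are no members, blue where the limma adjusted p was under 0.05. The 11 blue genes lie above 0, with TDGF1 farthest at 4.8, and SOX2 and LIN28B are among the 11 grey ones.

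Of 4 tested nuclear receptors that bind the POU5F1 promoter, 1 rose and 1 fell, beside 6.72% and 4.59% of all tested rows. NR5A2, an activator, stood at 2.62 and 3.77 FPKM in the male naive pair, 2.99 and 6.47 in the female naive pair, and 0.211 and 0.124 in the primed pair, and rose by 2.03 (SE 0.32, adjusted p = 0.0179) on about 4 estimated fragments in each primed library. NR5A2 passed the filter through the naive libraries alone. NR6A1 (GCNF), a repressor, was at 56.1 and 60.4, 41 and 36.9, and 104 and 80.1 FPKM in the same order and fell by 0.93 (SE 0.14, adjusted p = 0.0176). The repressors NR2F1 and NR2F2 were not called. Of 15 corepressor genes, subunits of NuRD and Polycomb repressive complex 2 with CBFA2T2, the partner of PRDM14, 0 rose and 1 fell, where 4.59% of all tested rows were called lower. That 1 was GATAD2B (-0.69, SE 0.17, adjusted p = 0.0491), and the median of the 15 was -0.11, beside 0.03 for all rows. Of 30 relatives of the members in the POU, SALL, PRDM and FOXD families 12 were tested. Of these 0 rose and 1 fell, beside 6.72% and 4.59% of all tested rows, with a median of -0.15. A count of 1 among the corepressors or the relatives lies near the share of all rows, and 4 receptors are too few for a share to be read. None of these counts is a result about its list. The relative called was POU3F2, a neural POU factor, at 1.88 and 2.23 FPKM in the male naive pair, 0.47 and 0.0554 in the female naive pair, and 3.88 and 3.19 in the primed pair (-1.21, SE 0.25, adjusted p = 0.0338).

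By Pearson's r over the 6 libraries on the log2(FPKM + 1) scale, among 3213 rows, the 5 non-members most like POU5F1 were CECR5 (0.9985), CNN2 (0.9968), SEPHS1 (0.9954), LNX2 (0.9951) and ZNF229 (0.9942). SEPHS1 had a difference nearest in size to that of POU5F1, at 261 and 253, 390 and 544, and 63.4 and 63.7 FPKM. Those most like NANOG were SPP1 (0.9968), DSE (0.9966), CLDN6 (0.9953), TXNRD1 (0.9946) and LNX2 (0.9945). Among the members, r with POU5F1 was highest for DPPA4 (0.987) and NANOG (0.982) and lowest for DPPA2 (0.597) and SALL4 (-0.314). The libraries form 3 groups, so these r values describe the group pattern and carry no test.

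Markers of other cell types were read in the same libraries. The pluripotent markers SOX2, TDGF1, GDF3, LIN28B and DNMT3B summed to 302 and 331 FPKM in the male naive pair, 436 and 437 in the female naive pair, and 228 and 224 in the primed pair. Of these 5, 3 rose in naive lines, DNMT3B and, passing the filter through naive libraries alone, TDGF1 and GDF3. SOX2 went the other way, at 85.3 to 122 FPKM in naive and at 141 and 124 in primed libraries, without being called. LIN28B overlapped. Of 6 neural markers NES was left out of the sum, since its row has a failed status and alone stood at 165 to 263 FPKM. The other 5 summed to 57.2 and 47.3 FPKM in the male naive pair, 20.1 and 15.6 in the female naive pair, and 99.8 and 72.9 in the primed pair, so naive libraries were below both primed ones. Of the 4 tested, NCAM1 and MAP2 fell in naive lines. TUBB3 overlapped between male naive (25.2 and 18.5 FPKM) and primed libraries (19.3 and 22.4). With NES the sum ran from 186 to 301 in naive and was 265 and 243 in primed libraries. For 6 mesoderm markers it ran from 14 to 32.3 against 4.24 and 3.2. Of the 4 tested EOMES and KDR rose, both of which passed the filter through naive libraries alone. T was above both primed libraries (2.69 and 0.818 FPKM) in male naive (4.14 and 7.33) and below both in female naive (0.489 and 0.288). TBX6 overlapped, and MESP1 was at 0 to 0.224 FPKM in naive and at 0.247 and 0.394 in primed libraries. For 5 endoderm markers the sum ran from 13.2 to 31.8 against 2.78 and 13.2, and for 6 trophoblast markers from 8.86 to 27.3 against 13.5 and 7.49. For 5 germ cell markers it ran from 4.96 to 20.7 against 9.77 and 6.43, with 0 called in each of these lists. CDX2 alone made up 12.7 of the 13.5 FPKM of trophoblast markers in primed 1, and stood at 0.188 in primed 2 and 0.265 to 7.7 in naive libraries. DDX4 and NANOS3, which define germ cells, were at 0.235 FPKM or less in each library. Summed fibroblast and feeder markers (7 genes) were at 108 and 84.5 in the male naive pair, 201 and 328 in the female naive pair, and 18.2 and 234 in the primed pair, so the 2 primed libraries stood apart. The part of these markers in the members' differences was not tested. Without primed 2 NANOG rose by 4.73 and POU5F1 by 2.4, and without primed 1 by 4.05 and 2.7.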

How the data were processed

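RNA from 6 lines was sequenced, 1 library per line. Per the submitters' processing notes, TopHat 1.3.0 was the aligner. The authors deposited FPKM with an error bound on either side, in the layout of a Cufflinks gene table per the file headers. Genome build, annotation and the version of the quantifier: not given in the sources used here. No genome was used. Rows were the same in all files. Symbols came from the files (22292 rows) or, where blank, a table of Ensembl names (728 rows). Where rows shared a symbol, the row with the highest mean was used.

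The bounds lie 2 SD from FPKM, so fragments were estimated as the square of 2 × FPKM divided by (upper bound - FPKM). Of estimates under 50, 56.5% to 62.6% per library were whole within 0.05. The estimates are not plain counts, since the bounds can hold more than counting error. TXNRD1, for one, had 72.1 and 364 estimated fragments at 109 and 113 FPKM in male naive 1 and 2. The bounds are set within each library and do not cover the variation among lines.

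The 40 rows with a failed status were left out, and 13685 rows that reached 1 FPKM in 2 or more libraries were tested. The model on log2(FPKM + 1), a scale that understates changes of low genes, had a mean per group and a trend (limma 3.58.1, R 4.3.3). Tests are two-sided with Benjamini-Hochberg adjustment over all tested rows, and intervals are for single tests. The fit was tested on simulated data. Marker lists were of pluripotent, neural, mesoderm, endoderm, trophoblast, germ, and fibroblast and feeder cells. Named genes were all members, up to 4 called genes with the smallest p of each other list, SOX2, TDGF1 and LIN28A, and the 5 genes most like POU5F1 and NANOG (5 FPKM or more in a group, range of 1 or more). LIN28B, SEPHS1, NR2F1, NR2F2 and the marker genes named in the text were singled out after their values were seen. Members and lists were chosen with earlier results of these data known. Alternatives were other pseudocounts (0.1 and 5), filters, scalings, a fit without the trend, a replicate block, left-out libraries and, chosen after seeing the data, thinning to the lowest depth.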

Additional observations from a re-analysis of the deposited data

How the results depend on the processing

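Of 547 values of single members under an alternative, 498 kept their direction and side of the threshold, 40 lost and 3 gained a call, and 6 changed sign. The signs that changed were of differences not called: SALL4 between naive and primed lines (0.32 without primed 1, range -0.71 to 0.32 with 1 library left out), SALL4 between male naive and primed lines (0.047 without male naive 1, 0.48 without primed 1, range -0.55 to 0.48), DPPA2 in that comparison (0.069 without male naive 2, range -0.32 to 0.069), and ZSCAN10 between female and male naive lines (-0.16 without female naive 2, range -0.16 to 0.25, and -0.033 after thinning). The members called higher numbered 7, 6 and 3 in the 3 comparisons. Leaving out 1 library gave 6 to 7, 1 to 6 and 0 to 3. Between female and male naive lines the number was 1 with a pseudocount of 0.1, 0 with no filter and 0 after thinning. Rows called over all genes were 1548, 738 and 453. They were 941, 400 and 268 with no filter, 812, 373 and 207 with the replicate block, 424, 127 and 63 after thinning, 177 to 1081, 51 to 626 and 41 to 523 with 1 library left out, 250 with sex ignored and 625 without both male naive libraries (naive against primed), and 348 in the compared groups alone (male naive against primed). Some of these settings leave fewer libraries or fragments, and the one with no filter tests more rows. The causes of the changed numbers were not tested. The sources used here link libraries with the same number by that number alone. Their deviations from the group means had correlations of -0.06, -0.05 and -0.263 over rows, which cannot show whether they share anything else. The replicate block changed no member call other than that of DPPA4 between female and male naive lines. UTF1 and DPPA2 have no value with a filter at 5 FPKM. Depth limits UTF1, DPPA2 and FOXD3, which had 1 to 15 estimated fragments in male naive libraries.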
